A study of Cricetulus griseus with 9 samples.

Results

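The comparison described here set 3 libraries labelled WTHK2 directly against 3 libraries labelled LAC, 6 of the 9 RNA sequencing libraries in the series, over all 6753 listed genes. The members were taken by their labels alone, and the 3 EV libraries did not enter the test. All libraries came from MI5-4, a subline of Chinese hamster ovary (CHO) cells, grown in the same glucose-containing medium with serum. EV cells carried an empty vector and are described in the labels as hexokinase null. WTHK2 cells are described as expressing wild-type hexokinase 2, and the group LAC was made of EV cells that received sodium lactate at 10 mM over 24 h. The libraries labelled WTHK2 and LAC therefore differed in both the construct and the lactate, and no sodium chloride or osmotic control was among the samples. The labels do not say whether the WTHK2 line was a single clone. They also leave unstated whether each replicate was a culture of its own, and the p-values cover no more than the spread among these libraries, which may be technical.

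Hexokinase phosphorylates glucose to glucose 6-phosphate and so commits it to glycolysis, the pentose phosphate pathway or glycosylation. Lactate is the end product of glycolysis and can be taken up and oxidised to pyruvate. It is also the source of the lactyl group in lactylation of histone lysines, including lysine 18 of histone H3, which the title of the series names. A direct comparison of WTHK2 with LAC asks how cells labelled as having the enzyme differed in their transcripts from cells labelled as lacking it that were given the product of the pathway.

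Of the 6753 genes, 829 (12.3%) differed between the libraries labelled WTHK2 and LAC at an adjusted p under 0.05 (limma on log2(CPM + 1), Benjamini-Hochberg adjustment over all genes). These comprised 433 genes (6.41%) higher and 396 genes (5.86%) lower in the libraries labelled WTHK2. A positive log2 difference below always means higher in WTHK2 than in LAC. The differences were small. The median size of a called difference was 0.24 on the log2 scale, and 17 higher and 7 lower genes reached 1.5-fold. The values of the groups did not overlap for 1957 genes (29.0% of all), among them 807 of the 829 called. The counts depended on single libraries: leaving out LAC replicate 3 gave 192 higher and 164 lower, WTHK2 replicate 2 gave 258 and 179, WTHK2 replicate 3 gave 213 and 193, and LAC replicate 1 gave 335 and 255. The effective library size read from the steps of the values was 18050959 to 26238659, and the lowest listed gene had at least 304 reads in each compared library. The first principal component of the 6 libraries held 48.8% of the variance and separated the groups. The second held 23.0%, and on it the first replicate of each group lay apart from the other libraries, at 6.14 and 3.88 against -5.38 to -1.40.

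**Figure D1:**
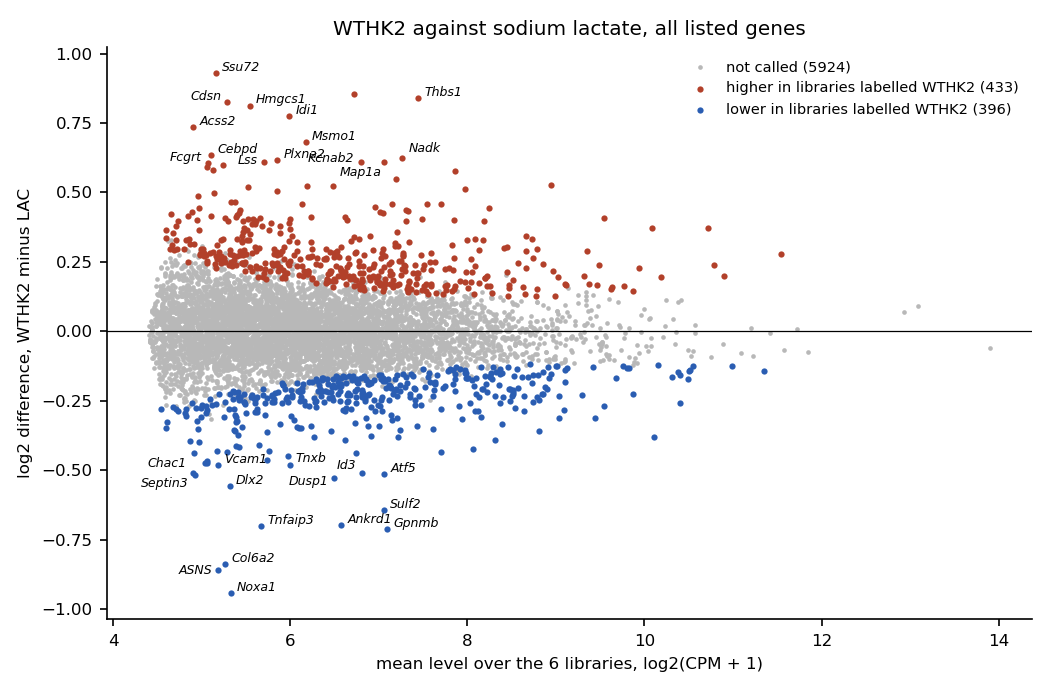
Log2 difference between the libraries labelled WTHK2 and LAC (y axis) against the mean level over the 6 libraries in log2(CPM + 1) (x axis), 1 point per gene. The 433 genes called higher and 396 called lower are coloured, and the largest of each direction are labelled, from Ssu72 at 0.93 to Noxa1 at -0.94.

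The Hk2 transcript did not separate the groups. It was at 66.6, 65.3 and 63.9 CPM in the libraries labelled WTHK2 and at 64.7, 70.4 and 68.5 CPM in those labelled LAC, with 67.3 ± 2.11 CPM (SD, n = 3) in EV. The values of the groups overlapped, and the log2 difference was -0.05 (95% interval -0.18 to 0.07, adjusted p = 0.601). The labels do not give the species of the introduced sequence, so whether this row counts its reads was not tested, and the transcript gives no check of the label. Hk1, the broadly expressed hexokinase and the only other member of the family listed, was at 279, 284 and 294 CPM in WTHK2 and at 305, 302 and 300 CPM in LAC. EV was above both at 324 ± 7.09 CPM (SD, n = 3). Transcripts of both genes were therefore counted in EV cells, which the labels describe as hexokinase null. Protein and enzyme activity are not covered by these libraries. The Hk1 values did not overlap, but the difference of -0.08 (SE 0.040) missed the threshold, with an adjusted p of 0.193.

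Genes of cholesterol synthesis and uptake were higher in the libraries labelled WTHK2 as a group. Of the 25 listed members, 15 were called higher and none lower, against 6.41% of all genes called higher, and the median log2 difference was 0.38 against 0.00 over all genes. The count was between 14 and 16 with any 1 library left out. Cells make cholesterol from acetyl-CoA through the mevalonate pathway, and the transcription factor SREBP2 raises the genes of synthesis and uptake when sterols in the endoplasmic reticulum are low.

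Hmgcs1, which makes the HMG-CoA that feeds the mevalonate pathway, was at 55.4, 60.6 and 59.4 CPM against 30.8, 34.5 and 33.3 CPM, a log2 difference of 0.81 (SE 0.069, adjusted p = 9.14e-07). No value of one group reached the other, and EV was at 47.1 ± 1.85 CPM (SD, n = 3), nearer to WTHK2 than to LAC for this gene. Idi1, the isopentenyl diphosphate isomerase, was at 77.8, 78.9 and 80.9 CPM against 47.7, 47.0 and 43.1 CPM, a difference of 0.77, with EV at 49.3 ± 2.62 CPM (SD, n = 3). Here EV lay close to LAC.

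Enzymes of the later steps were also higher. Sqle, squalene epoxidase, was at 589, 572 and 576 CPM in WTHK2 and at 417, 393 and 393 CPM in LAC (0.53, SE 0.039, adjusted p = 3.56e-07). Lss, lanosterol synthase, differed by 0.61 and Msmo1, which demethylates the sterol ring, by 0.68. Srebf2, which encodes SREBP2, differed by 0.46; it was picked out after its value was seen. Among the 10 members that did not pass were the cholesterol exporters of the lysosome, Npc1 at -0.03 and Npc2 at -0.11, and the sterol sensor Scap at 0.02. Medians of the list against EV were 0.31 for WTHK2 and -0.07 for LAC; these values share the EV libraries.

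**Figure D2:**
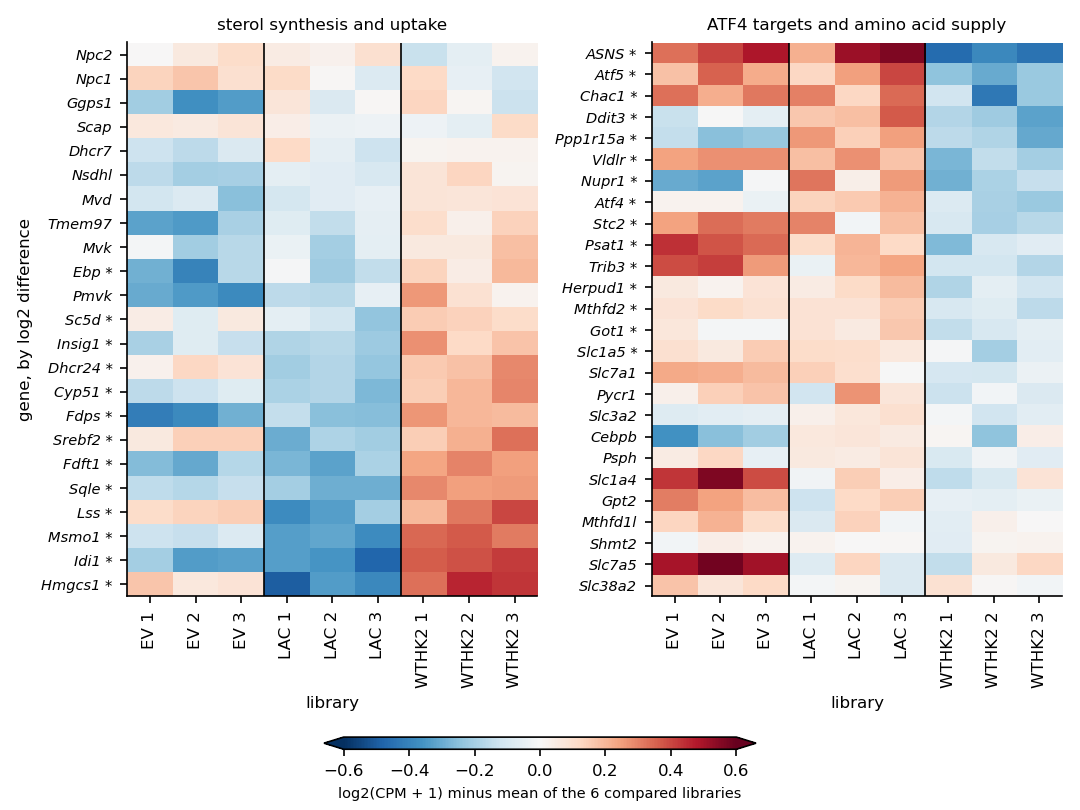
Level of members of the sterol list (left) and the ATF4 list (right) in every library, as log2(CPM + 1) minus the gene's mean over the 6 compared libraries; red is above and blue below that mean, and genes are sorted by log2 difference, with an asterisk where the difference passed the test. The left panel shows 23 of the 25 genes, of which 13 carry an asterisk, and all 13 are higher in WTHK2; in the right panel 15 of 26 do and all 15 are lower.

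The fatty acid list held 14 genes, of which 5 were called higher and 1 lower (median 0.15), against 6.41% and 5.86% of all genes. Acss2, which turns acetate into acetyl-CoA, was at 36.7, 35.0 and 37.4 CPM in WTHK2 and at 22.2, 21.9 and 20.3 CPM in LAC. The difference was 0.74 (SE 0.078, adjusted p = 9.76e-06), without overlap, and EV at 20.5 ± 1.33 CPM (SD, n = 3) lay close to LAC. Scd1 and Scd2, desaturases that make monounsaturated fatty acids, were higher by 0.40 and 0.46. They are close copies of each other, and how reads shared by copies were counted is not given in the sources used here. Gpam, which starts glycerolipid synthesis, was lower by 0.28 on the log2 scale, at 177, 188 and 197 CPM against 224, 240 and 218 CPM. Fasn, the fatty acid synthase itself and named after its value was seen, differed by -0.04 (adjusted p = 0.585). Of 5 genes of cholesterol efflux 2 were called higher, again beside 6.41% of all genes. That count was 2 without WTHK2 replicate 2 and 1 without any other single library. Abca1, the exporter to lipoprotein particles, was higher by 0.58 at 39.7, 38.5 and 44.1 CPM against 24.9, 32.5 and 23.8 CPM, yet EV was above both at 51.8 ± 4.95 CPM (SD, n = 3).

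Targets of ATF4 moved the other way. ATF4 is the transcription factor translated when eIF2 alpha is phosphorylated, as in amino acid shortage, and it raises genes of amino acid synthesis and import. Of 26 listed genes 15 were lower in the libraries labelled WTHK2 and none was higher, against 5.86% of all genes called lower, with a median of -0.21. With 1 library left out the count was 10 to 15, the lowest without LAC replicate 3.

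ASNS, asparagine synthetase, was at 24.3, 25.6 and 24.6 CPM in WTHK2 and at 39.3, 48.7 and 50.4 CPM in LAC, with EV at 45.2 ± 2.5 CPM (SD, n = 3). The log2 difference was -0.86 (SE 0.088, adjusted p = 7.74e-06), the libraries labelled LAC were spread more widely than those labelled WTHK2, and no values overlapped. Atf5, a related transcription factor, was at 110, 105 and 111 CPM against 142, 154 and 172 CPM (-0.51). Chac1, which degrades glutathione, was at 26.1, 20.8 and 24.1 CPM against 35.1, 31.0 and 36.2 CPM (-0.51). For Atf5 and Chac1, too, EV was within or near the LAC range, at 155 ± 10.1 and 34.8 ± 1.52 CPM (SD, n = 3).

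Atf4 itself was at 314, 290 and 285 CPM in WTHK2 and at 366, 371 and 385 CPM in LAC (-0.33, adjusted p = 9.65e-05), and EV lay between at 333 ± 7.68 CPM (SD, n = 3). Ppp1r15a, which directs dephosphorylation of eIF2 alpha, was at 47.2, 46.3 and 42.4 CPM against 63.3, 58.4 and 62.6 CPM (-0.43). Unlike ASNS, Ppp1r15a in EV, at 45.5 ± 1.83 CPM (SD, n = 3), was at the WTHK2 level. EV thus lay on the LAC side for some members and on the WTHK2 side for others. Over the list as a whole EV was near LAC, with medians against EV of -0.19 for WTHK2 and -0.01 for LAC. These values share the EV libraries. Another 11 members did not pass.

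Aminoacyl-tRNA synthetases charge tRNAs with amino acids, and several are ATF4 targets. Of 19 cytosolic members 5 were lower and none higher (median -0.11), against 5.86% and 6.41% of all genes. Without LAC replicate 3, WTHK2 replicate 2 or WTHK2 replicate 3 the lower count was 3. Cars was at 96.1, 93.4 and 91.3 CPM against 115, 121 and 118 CPM (-0.33, adjusted p = 0.000318). Iars and AARS were lower by 0.23 and 0.19 on the log2 scale.

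Several chaperones of the endoplasmic reticulum were higher in the libraries labelled WTHK2. The unfolded protein response senses misfolded protein in that compartment and raises chaperones through ATF6 and XBP1. Of 24 listed genes 12 were called higher and 1 lower and 11 did not pass (median 0.17), against 6.41% of all genes called higher. The higher count was 6 without LAC replicate 3 and 6 without the variance trend. Hspa5, the main luminal HSP70 (BiP), was at 2030, 1834 and 1854 CPM against 1523, 1460 and 1426 CPM (0.37, SE 0.044, adjusted p = 2.86e-05), with EV at 1408 ± 31.7 CPM (SD, n = 3). The ranges were well apart, and EV lay just under LAC. Xbp1 differed by 0.33 and the chaperone partner Sdf2l1 by 0.30. Hsp90b1, the luminal HSP90, differed by 0.24 but did not pass after quantile normalization (adjusted p = 0.053). The lower member was Herpud1, a component of the degradation machinery that the ATF4 list also holds, at -0.24; it is named because it was the exception. The lower count was 0 without LAC replicate 3 or WTHK2 replicate 3 and 2 without WTHK2 replicate 1. Of 15 cytosolic heat shock genes 1 was higher, and that count was 0 without LAC replicate 2 or 3 or WTHK2 replicate 2 or 3.

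NRF2, a transcription factor released from KEAP1 by oxidants and electrophiles, drives quinone reduction and glutathione and thioredoxin recycling. Of 23 listed genes 5 were higher and 2 lower (median 0.07), against 6.41% and 5.86% of all genes. The higher count stayed 5 with each library left out in turn. Nqo1, the quinone reductase, was at 43.0, 44.3 and 46.6 CPM against 27.6, 27.8 and 32.2 CPM (0.60, SE 0.078, adjusted p = 7.71e-05), with EV lower than both at 23.8 ± 0.365 CPM (SD, n = 3). Gsr, glutathione reductase, differed by 0.39, Prdx1, a peroxiredoxin, by 0.33, and Hmox1, heme oxygenase, by 0.27. The 2 lower members, FTH1 and Gss, were both at -0.14; without LAC replicate 2 the lower count was 1, and without any other single library it was 0.

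**Figure D3:**
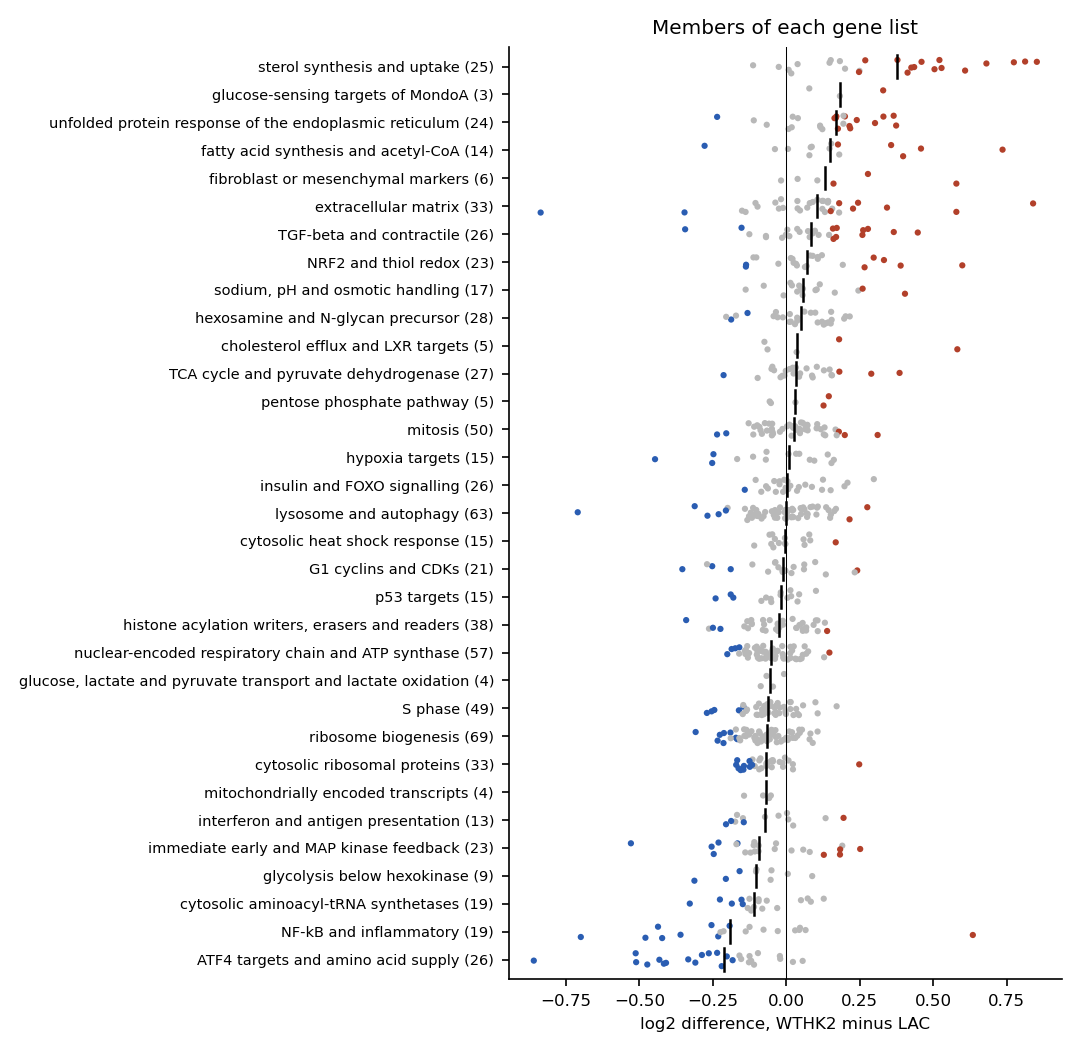
Log2 difference (x axis) of every listed member of each gene list (rows, number listed in brackets), 1 point per gene, red if called higher in the libraries labelled WTHK2, blue if called lower and grey if not called; black bars are medians and vertical scatter within a row has no meaning. The sterol list, median 0.38, is at the top and the ATF4 list, median -0.21, at the bottom.

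Inflammatory genes that passed were lower in the libraries labelled WTHK2, with 1 exception. NF-kB is a family of transcription factors that induces cytokines, adhesion molecules and its own inhibitors. Of 19 listed genes 8 were lower, 1 was higher and 10 did not pass (median -0.19), against 5.86% of all genes called lower, and 6 to 9 were lower with 1 library left out. Tnfaip3 (A20), a feedback inhibitor of the pathway, was at 37.0, 39.4 and 36.9 CPM against 60.2, 65.5 and 60.3 CPM (-0.70, SE 0.065, adjusted p = 2.55e-06), with EV highest at 71.7 ± 3.66 CPM (SD, n = 3). Ccl2, a monocyte chemokine, was at 220, 220 and 243 CPM against 329, 300 and 288 CPM (-0.42), with EV at 208 ± 20.8 CPM (SD, n = 3). For Tnfaip3, then, EV lay on the LAC side, and for Ccl2 on the WTHK2 side. The growth factor Csf1 was lower by 0.44, the adhesion molecule Vcam1 by 0.48 and the subunit Nfkb2 by 0.36 on the log2 scale. The higher member was Cebpd, an inflammation-responsive transcription factor, at 41.8, 38.9 and 42.2 CPM against 28.6, 23.1 and 26.5 CPM (0.63, adjusted p = 9.42e-05).

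Growth-signal genes were mixed. Of 23 immediate early and MAP kinase feedback genes 5 were lower and 4 higher, against 5.86% and 6.41% of all genes. Without LAC replicate 3 the counts were 3 lower and 0 higher. The 4 higher became 1 without LAC replicate 1, 2 without WTHK2 replicate 2 and 1 without WTHK2 replicate 3. Dusp1, a phosphatase that inactivates MAP kinases, was at 72.6, 71.8 and 74.7 CPM against 106, 110 and 102 CPM (-0.53, SE 0.052, adjusted p = 4.72e-06). EV, at 72.4 ± 3.4 CPM (SD, n = 3), coincided with WTHK2. Myc, at 481, 492 and 474 CPM against 570, 562 and 566 CPM (-0.23), and Fosl1, an AP-1 subunit at -0.25, showed the same placing, with EV at 484 ± 4.37 and 399 ± 8.28 CPM (SD, n = 3). Egr1, an early growth response factor, was at 156, 142 and 158 CPM against 133, 129 and 120 CPM, with EV well below both at 72.3 ± 3.76 CPM (SD, n = 3). It was higher by 0.25 and did not pass without LAC replicate 3 (adjusted p = 0.0604). Outside this list, Ankrd1, a target of the YAP coactivator, was at 74.9, 71.5 and 69.3 CPM against 118, 122 and 112 CPM (-0.70). EV lay between at 89.8 ± 3.79 CPM (SD, n = 3).

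Of 15 hypoxia targets 3 were lower and none higher, against 5.86% and 6.41% of all genes, and the median was 0.01. Vegfa, the angiogenic growth factor, was at 53.3, 49.2 and 53.9 CPM in WTHK2 and at 71.9, 71.6 and 70.7 CPM in LAC (-0.45, SE 0.059, adjusted p = 9.42e-05), with EV at 58.5 ± 2.48 CPM (SD, n = 3). P4ha1, a collagen prolyl hydroxylase, was lower by 0.25 on the log2 scale, and Vegfb, also at -0.25, did not pass without LAC replicate 3 (adjusted p = 0.071). Values for Vegfa did not overlap between the groups.

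**Figure D4:**
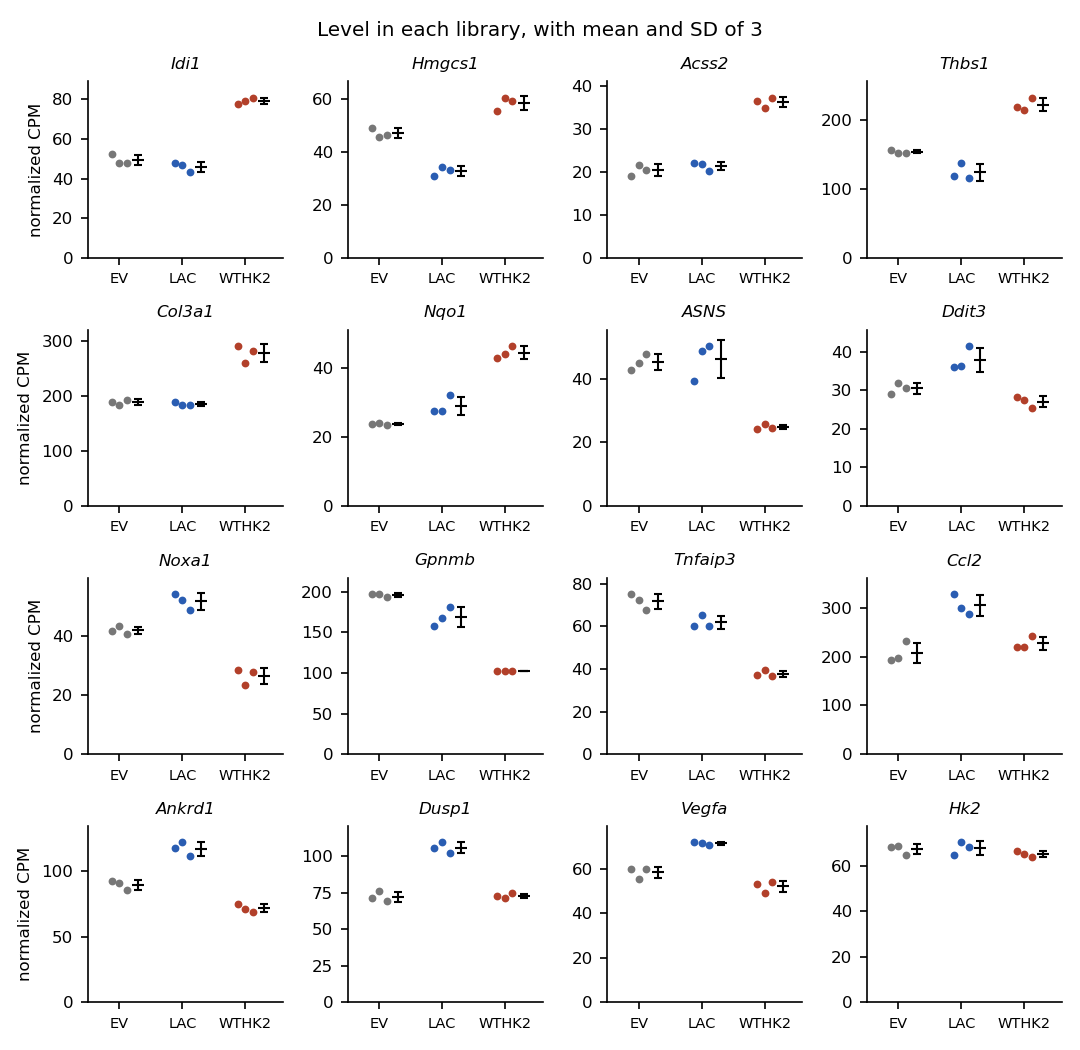
Normalized CPM (y axis, from 0) of 16 genes in each EV, LAC and WTHK2 library (points), with the mean and SD of the 3 libraries of each group beside them. EV sits with LAC for Acss2 and Col3a1, with WTHK2 for Dusp1, and between them for Hmgcs1; the groups overlap for Hk2.

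Genes of the extracellular matrix included calls in both directions. Of 33 listed genes 7 were higher and 2 lower (median 0.11), against 6.41% and 5.86% of all genes. The lower count was near the share of all genes. The higher count was 4 without LAC replicate 3 or without WTHK2 replicate 3, and the lower count was 5 without WTHK2 replicate 1. Thbs1, thrombospondin 1, was at 219, 214 and 232 CPM against 119, 137 and 115 CPM (0.84, SE 0.059, adjusted p = 3.00e-07). Col3a1, type III collagen, was at 291, 260 and 282 CPM against 189, 184 and 183 CPM (0.58), and EV, at 188 ± 5.22 CPM (SD, n = 3), was at the LAC level. Col6a2, a chain of type VI collagen, went the other way at 31.3, 23.4 and 25.2 CPM against 52.4, 42.7 and 49.3 CPM (-0.84, adjusted p = 3.13e-05). The collagen chaperone Serpinh1 was higher by 0.34.

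Of 26 genes of TGF-beta signalling and the contractile cytoskeleton 9 were higher and 2 lower (median 0.08). Of all genes 6.41% were called higher and 5.86% lower. The higher count was 3 without LAC replicate 3, 4 without WTHK2 replicate 2 or without WTHK2 replicate 3, and 5 after quantile normalization, and the lower count was 2 without LAC replicate 2 and 1 without any other single library. Tgfbr2, the signalling receptor, was at 137, 141 and 149 CPM against 100, 110 and 102 CPM (0.45, adjusted p = 2.90e-05), and vimentin, Vim, differed by 0.28. Vim and Col3a1 are also markers of mesenchymal cells, of which 6 are listed, 3 called higher and none lower. None of the markers chosen for leukocytes, epithelial cells or endothelial cells is among the listed genes. In bulk libraries, fewer cells of a kind and less RNA per cell cannot be told apart.

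Glycolytic enzymes below hexokinase that passed were lower in the libraries labelled WTHK2. Of 9 listed, 3 were lower and none higher (median -0.10), against 5.86% and 6.41% of all genes. The lower count was 2 or 3 with each library left out in turn. Pgam1, phosphoglycerate mutase, was at 596, 638 and 629 CPM in WTHK2 and at 778, 751 and 785 CPM in LAC (-0.31, SE 0.039, adjusted p = 5.44e-05). EV, at 641 ± 8.07 CPM (SD, n = 3), was at the WTHK2 level. The nearest listed neighbours of Pgam1 in the reference gene order, described at the end, had a median log2 difference of -0.11. Pfkl, a phosphofructokinase subunit, was at 327, 317 and 338 CPM against 381, 366 and 386 CPM (-0.21, adjusted p = 0.00347), with EV again at the WTHK2 level (334 ± 2.47 CPM, SD, n = 3). GPI, the other lower member, at -0.16, did not pass without LAC replicate 1 or 3 or WTHK2 replicate 2 or 3. None of the 4 listed transport and lactate genes passed; Bsg, the chaperone of lactate carriers, was at -0.09 (adjusted p = 0.196) and the glucose carrier Slc2a1 at -0.07 (adjusted p = 0.536).

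Other metabolic lists held few calls, to be read against 6.41% of all genes called higher and 5.86% called lower. In the TCA cycle list 3 of 27 genes were higher and 1 lower. Idh1, which makes cytosolic NADPH from isocitrate, was higher by 0.39 at 48.7, 57.0 and 52.7 CPM against 38.8, 39.8 and 41.8 CPM. The higher count was 5 without WTHK2 replicate 1 and 1 without WTHK2 replicate 3, and the lower count was 0 without LAC replicate 1 or 2 and without WTHK2 replicate 2 or 3. Among 57 nuclear genes of the respiratory chain 1 was higher and 4 were lower (median -0.05). That lower count was 7 without LAC replicate 2, 1 without LAC replicate 3 and 0 without LAC replicate 1, WTHK2 replicate 2 or WTHK2 replicate 3, and the higher count was 0 without any of these libraries. None of 4 mitochondrially encoded transcripts passed. CYTB was at 2462, 1952 and 1959 CPM against 2596, 2116 and 2021 CPM, so that the first replicate was highest in each group, while EV was at 1437 ± 44.4 CPM (SD, n = 3). Of 38 genes that write, erase or read histone acyl marks, 3 were lower and 1 higher, near or under the shares of all genes (5.86% and 6.41%). Mta2, a subunit of a deacetylase complex, was lower by 0.34, at 120, 106 and 111 CPM against 147, 143 and 137 CPM, and its neighbours had a median of -0.14. Brpf1, a reader in acetyltransferase complexes, was lower by 0.25. Without WTHK2 replicate 1 the lower count was 5, and the higher count was 0 whichever library was left out.

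Ribosome and cell cycle genes showed small differences, again beside 5.86% of all genes called lower and 6.41% higher. Of 69 ribosome biogenesis genes 8 were lower and none higher (median -0.07), led by the helicase Ddx27 (-0.31, adjusted p = 0.000223) and the nucleolar protein Nolc1 (-0.23). The count was 13 without WTHK2 replicate 1, 5 without WTHK2 replicate 2, and 4 without LAC replicate 3 or WTHK2 replicate 3. Nolc1, Npm3 and Rrp12 had neighbours at -0.16, -0.19 and -0.11. Ribosomal protein genes have many near-identical copies in mammalian genomes, and their values are uncertain where reads were split among them. Of 33 listed 9 were lower and 1 higher (median -0.07), the lower count being 14 without LAC replicate 2, 3 without WTHK2 replicate 2, 1 without LAC replicate 1, and 0 without LAC replicate 3 or WTHK2 replicate 3; the higher count was 0 without LAC replicate 2, LAC replicate 3, WTHK2 replicate 2 or WTHK2 replicate 3. Ccnd1, cyclin D1, was at 321, 340 and 315 CPM against 374, 412 and 377 CPM (-0.25, adjusted p = 0.00176). Pola2, a subunit of DNA polymerase alpha, was lower by 0.27, and it was among 5 lower of 49 S phase genes, a count that was 3 without LAC replicate 1 or 2, 2 without WTHK2 replicate 2 and 1 without LAC replicate 3 or WTHK2 replicate 3. Of 50 mitosis genes 3 were higher and 2 lower; the higher count was 1 without LAC replicate 3, and the lower count was 1 without LAC replicate 3, WTHK2 replicate 2 or WTHK2 replicate 3. Cdc20, the activator of the anaphase-promoting complex, was at 280, 279 and 279 CPM against 246, 246 and 248 CPM (0.18), while Ube2c, its ubiquitin-conjugating enzyme, was at 348, 353 and 354 CPM against 415, 388 and 414 CPM (-0.20).

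Lysosomal genes gave 5 lower and 2 higher of 63 (median 0.00), near or under the shares of all genes called lower (5.86%) and higher (6.41%), the lower count staying between 5 and 7 and the higher count being 1 with any LAC library left out and 0 without WTHK2 replicate 2 or 3. Gpnmb, a glycoprotein of lysosomes and melanosomes, was at 102, 103 and 103 CPM in WTHK2 and at 158, 168 and 181 CPM in LAC (-0.71, SE 0.052, adjusted p = 3.56e-07), with EV above both at 196 ± 2.22 CPM (SD, n = 3). The hydrolases Ctsa and Gaa were lower by 0.31 and 0.27 on the log2 scale, and Psap, the precursor of saposins, by 0.23. Ctsa had neighbours at -0.19. In the sodium, pH and osmotic list 2 of 17 were higher and none lower, and 4 were higher without LAC replicate 2. AKR1B8, an aldo-keto reductase, differed by 0.40, and Slc6a6, the taurine carrier, by 0.26 at 290, 273 and 299 CPM against 249, 246 and 224 CPM.

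The remaining lists held 1 to 4 calls each, and the shares of all genes called lower and higher were 5.86% and 6.41%. Of 13 interferon and antigen presentation genes 3 were lower and 1 higher, the higher count being 1 without LAC replicate 1 and 0 without any other single library. Samhd1, a nucleotide hydrolase that restricts viruses, was lower by 0.21 on the log2 scale at 153, 161 and 154 CPM against 182, 183 and 174 CPM, and its neighbours were at -0.15. Of 15 p53 targets 3 were lower and none higher, and 1 was lower without LAC replicate 1 or 3 or WTHK2 replicate 1 or 2. Plk2, a stress-responsive kinase among them, was at 79.1, 79.8 and 76.7 CPM against 93.7, 90.3 and 95 CPM (-0.24, adjusted p = 0.00564). Of 21 G1 genes 3 were lower and 1 higher, the higher count being 0 without LAC replicate 3 or WTHK2 replicate 2. In the pentose phosphate pathway 2 of 5 were higher, 1 without any single LAC library and 0 without WTHK2 replicate 2 or 3. Mlx, the partner of the glucose sensor MondoA and the called member of 3 listed, was higher by 0.33, did not pass without WTHK2 replicate 2 (adjusted p = 0.058) and had neighbours at 0.17. Of 28 hexosamine and N-glycan genes 2 were lower and none higher (median 0.05, against 0.00 over all genes). The higher count was 3 without WTHK2 replicate 1, and the lower count was 1 without LAC replicate 1 or 2 and 0 without LAC replicate 3 or WTHK2 replicate 2 or 3. Of 26 insulin and FOXO genes 1 was lower, and none was without LAC replicate 1 or 3 or WTHK2 replicate 2 or 3.

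Where a list held no call in one direction, limma at an unadjusted p under 0.05 and voom on the reads recovered from the CPM steps gave the following. For the sterol list 1 gene was lower at the unadjusted p and 0 by voom. The ATF4 list had 0 higher by both, as had the glycolytic list and the ribosome biogenesis list. Among hypoxia targets 3 were higher at the unadjusted p and 0 by voom, and among tRNA synthetases 1 and 0. For the hexosamine list 4 were higher at the unadjusted p, beside 3 lower, and for the insulin and FOXO list 3 were higher, with 0 higher by voom in both. The p53 and S phase lists each had 1 higher at the unadjusted p and 0 by voom, and the sodium and heat shock lists each had 1 lower and 0 by voom. The MondoA, pentose phosphate, cholesterol efflux and mesenchymal lists had 0 lower by both. For the transport and lactate list and the mitochondrially encoded transcripts both gave 0 in each direction. Of the hexokinases Hk1 was lower at the unadjusted p and 0 were called by voom.

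Genes outside these lists were among the largest differences. Noxa1, an activator of NADPH oxidases, had the largest lower difference among the named genes at -0.94 (SE 0.082, adjusted p = 1.10e-06), with 28.4, 23.4 and 27.9 CPM against 54.3, 52.3 and 48.7 CPM and EV between at 42.0 ± 1.22 CPM (SD, n = 3). Cdsn, corneodesmosin, was at 53.3, 46.8 and 47.0 CPM against 31.0, 24.7 and 26.2 CPM (0.83), and Fcgrt, the neonatal Fc receptor, at 40.6, 37.9 and 40.1 CPM against 25.5, 27.0 and 24.4 CPM (0.61). In neither case did the groups overlap, and EV was at or under the LAC level at 25 ± 1.42 and 21.9 ± 2.88 CPM (SD, n = 3). Plxna2, a semaphorin receptor, and Map1a, a microtubule protein, were higher by 0.62 and 0.61, with EV, at 65.3 ± 3 and 145 ± 1.7 CPM (SD, n = 3), nearer to WTHK2. Sulf2, an extracellular sulfatase of heparan sulfate, was at 102, 98.4 and 109 CPM against 157, 169 and 158 CPM (-0.64), and its neighbours had a median of -0.17. Id3, an inhibitor of helix-loop-helix factors, and Dlx2, a homeobox factor, were lower by 0.51 and 0.56 on the log2 scale.

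The largest higher difference lay in a run of neighbouring genes that all differed the same way. Ssu72, a phosphatase of RNA polymerase II, was at 45.9, 46.7 and 45.1 CPM in WTHK2 and at 23.0, 23.5 and 24.4 CPM in LAC (0.93, SE 0.071, adjusted p = 4.14e-07), with EV at 22.0 ± 3.50 CPM (SD, n = 3). Listed genes were put in the order of the CriGri-PICRH-1.0 reference assembly and read in windows of 15 neighbours. The window around Ssu72 had the highest of 5992 medians, 0.31, and all 15 of its genes were called higher, against 6.41% of all genes. It holds Nadk, the NAD kinase, at 174, 193 and 190 CPM against 117, 119 and 124 CPM (0.62, adjusted p = 4.14e-07). Medians of that window against EV were 0.54 for WTHK2 and 0.16 for LAC. The next highest windows lay on another chromosome, around Dcakd (median 0.22, 7 of 15 called higher) and Ormdl3 (median 0.21, 8 of 15), with no gene called lower in either.

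Windows of lower genes were found as well. Around Pkig, Serinc3 and Ttpal the median was -0.24 with 11 of 15 genes called lower, against 5.86% of all genes. Serinc3 at -0.02 and Ttpal at -0.18 were not called themselves. Around Scand1 on the same chromosome the median was -0.19 with 9 of 15. The third window, around Lzts2 and Twnk on another chromosome, also had a median of -0.19 with 9 of 15 called lower. By comparison, the 1st and 99th percentiles of all windows were -0.17 and 0.17. The windows were taken as the extremes of the same differences, so many calls in one direction follow from that choice. Their medians and called counts are a description without a test. Dcakd, a dephospho-CoA kinase domain protein, was at 158, 168 and 165 CPM against 115, 120 and 123 CPM (0.46), and Twnk, the mitochondrial DNA helicase, at 74.4, 78.5 and 75.3 CPM against 93.4, 101 and 99.2 CPM (-0.36).

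**Figure D5:**
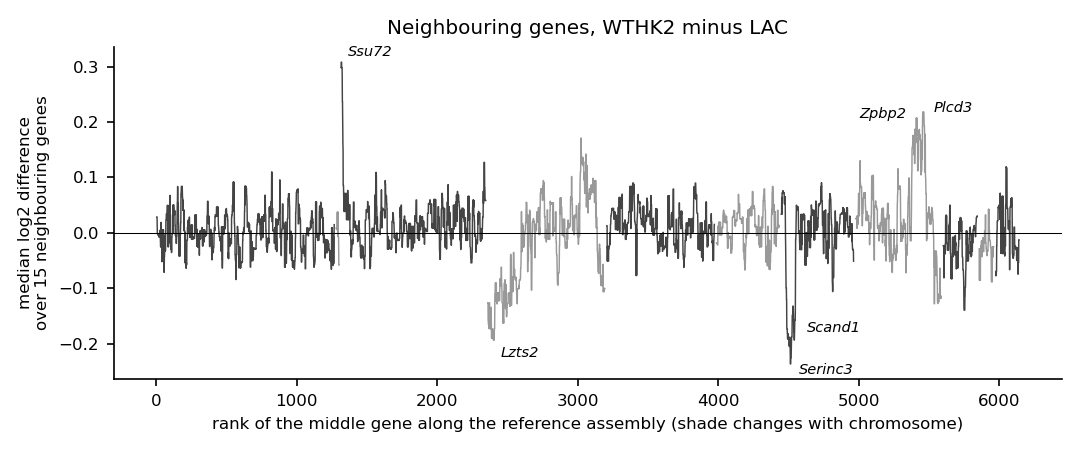
Median log2 difference over 15 neighbouring listed genes (y axis) against the rank of the middle gene along the reference assembly (x axis, in genes), with the line shade changing between chromosomes and a gene named at each of the 3 highest and 3 lowest windows. Most windows lie near 0, between -0.17 and 0.17 at the 1st and 99th percentiles, and the named runs stand outside, from -0.24 to 0.31.

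For each placed gene the median over its 14 nearest listed neighbours was taken with the gene itself left out. That median was at or above 0.1 for 3.25% of all placed genes and for 71 of 392 placed genes called higher (18.1%), and at or below -0.1 for 4.72% of all and for 103 of 354 called lower (29.1%). Besides the genes of the windows and those given with their neighbours above, the called genes named whose neighbours lay past these limits in the direction of the gene itself were Gss (-0.12), Nfkb2 (-0.18), Gpam (-0.15), Ankrd1 (-0.11) and Ube2c (-0.19), and in the opposite direction Acss2 (-0.11). Fasn, which was not called, had neighbours at -0.11. Counting only genes whose neighbours lay within the limits, together with unplaced genes, left 361 higher and 291 lower. Of the 6753 genes this set aside 200 at or above the upper limit and 290 at or below the lower. Before, the counts over all genes were 433 and 396. The number of members left in each list is not given, so the list counts have no share beside them. Higher counts stayed at 15 in the sterol list and 12 in the endoplasmic reticulum list. Lower counts went from 15 to 14 for ATF4, from 8 to 7 for NF-kB and from 8 to 4 for ribosome biogenesis. Several other lists also lost calls. Among them were the glycolytic and G1 lists (each 3 to 2 lower), the fatty acid and insulin lists (each 1 to 0 lower) and the MondoA list (1 to 0 higher). What these runs of genes come from was not tested.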

How the data were processed

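The deposited table holds CPM values, normalized by the authors, for 6753 genes in 9 libraries. The submitters' processing notes name edgeR 3.8, featureCounts 2.0.1, STAR 2.7.0a, FastQC 0.11.8 and cutadapt 1.18. The sources used here do not give the genome build, the annotation, the strand setting or the filter on low expression. The lowest listed gene has a mean of 20.2 CPM over the 6 compared libraries, so genes below about that level were not analysed here. Values were tested as log2(CPM + 1) with limma 3.58.1 (trend, R 4.3.3), 3 WTHK2 against 3 LAC libraries, with Benjamini-Hochberg adjustment and a threshold of 0.05; the script was tested on simulated data. EV values are printed as background only. Library sizes come from the steps between CPM values.

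Named genes are the listed hexokinases, the 15 largest non-overlapping called genes in each direction, up to 4 called members of each list with the smallest adjusted p (up to 2 of the largest where none passed), and the 3 central genes of each window; others were chosen after their values were seen. The members and the 37 lists were chosen with earlier results of these data known. Gene order came from RefSeq for CriGri-PICRH-1.0, to which 6149 symbols (91.1%) matched and 6146 were placed; the authors' build is not named, so no coordinates are given. No sequences are shown, and a few genes that the rule names are not reported here.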

Additional observations from a re-analysis of the deposited data

How the results depend on the processing

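The numbers of genes higher and lower, 433 and 396, became 761 and 709 with a replicate block and 193 and 151 at an adjusted p under 0.01, and the lower count became 241 without the variance trend. With 1 library left out they ranged from 192 to 499 and from 164 to 483. Under the other alternatives both stayed within 1.5 times: all 9 libraries together, both first replicates left out, a filter at 50 CPM or none, pseudocounts of 0.25 and 4 CPM, rescaling, quantile normalization, a robust fit and voom on recovered reads. No gene called under both the original and an alternative setting changed sign. Of 129 genes that the naming rule chose and that passed, 46 missed the threshold in at least 1 of 19 planned settings. Another 64 passed in all 19, and 19 passed in every setting except the filter at 50 CPM, which did not test them. The alternatives with edgeR and DESeq2 were not run, because the lowest listed genes have too many reads for the recovery of whole reads from CPM steps to be checked independently. The voom counts rest on the same recovery. Rescaling turned the median of the insulin and FOXO list, of which 1 of 26 genes passed, from above to below 0.

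The replicate numbers are shared by the groups, and the deviations of same-numbered libraries correlated at 0.437, 0.251 and 0.0733. Differently numbered pairs correlated at -0.335 to 0.186. WTHK2 replicate 3 correlated best with LAC replicate 2 (0.186), while every other library correlated best with its same-numbered partner. The main fit left the libraries unpaired, so any effect shared by replicate number stayed in its spread. Whether the numbers mark a shared batch was not tested, and the block result is given only here. Restricting the counts to genes with neighbours near 0, chosen after seeing the data, gave 361 higher and 291 lower. The listed genes start near 20.2 CPM, and transcripts below that level are not covered.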
